A study of Mus musculus with 2 samples.

Results

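Antioxidant defence genes of male germ cells were followed through testes of Prm2 knockout (Prm2 KO, genotype Prm2 -/-) and Prm2 heterozygous (Prm2 het, genotype Prm2 +/-) mice. The genes are Sod1, Sod2, Gpx4, Prdx4, Prdx5, Txn2, Txndc2, Txnrd3 and Gstm5, chosen by name from known function, and each matched 1 row, so that they make up 9 of the 32285 genes counted. One single-cell library per genotype was made from whole testis, described as mixed testicular cells, after tubules had been freed from the tunica, digested in steps and washed to remove Leydig cells. Both genotypes carry an altered Prm2 allele, no wild-type library was analysed, and the labels used here state neither the altered part of Prm2 nor the age, strain or number of mice. With 1 library per genotype there is no replicate and no test of a difference. Each interval below is a 95% interval for counting error only, and a difference of at least 2-fold is a rule of size.

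Superoxide, made largely by the respiratory chain, is turned into hydrogen peroxide by superoxide dismutases, and peroxides are then removed by glutathione peroxidases and peroxiredoxins. Thioredoxins and glutathione supply the reducing power for these enzymes and are themselves reduced by NADPH-dependent reductases. Sperm carry much polyunsaturated lipid and little cytoplasm, and the same thiol enzymes also take part in cross-linking protamine and tail proteins while the sperm matures, so spermatids hold several isoforms made mainly in the testis. Protamine 2, encoded by Prm2, packs sperm DNA after histones leave, and its loss is linked to oxidative damage of sperm.

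Stretches before a listed start of 4 members are shown because these genes have opposite stage profiles below, Txnrd3 and Sod2 highest in spermatocytes and Txndc2 and Sod1 in spermatids. They are read 5′ to 3′ on the gene's strand and end at that start or before the first exon base annotated in the window, from RefSeq on GRCm38.p6 (mm10). The Sod2 stretch lies inside the gene as GENCODE M21 draws it, past the start of a transcript that begins further upstream, and is free of exon bases. Capitals mark matches, on either strand, to the antioxidant response element TGACNNNGC, the cAMP response element TGACGTCA, its 6-base form ACGTCA (contained in TGACGTCA) and the TATA box TATAAA.
Txndc2, chr17:65642205-65642454, minus strand: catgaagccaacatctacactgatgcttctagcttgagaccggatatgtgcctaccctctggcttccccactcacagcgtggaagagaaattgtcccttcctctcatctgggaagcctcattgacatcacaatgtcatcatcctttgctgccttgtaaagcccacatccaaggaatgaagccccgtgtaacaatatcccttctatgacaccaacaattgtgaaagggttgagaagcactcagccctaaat
Sod1, chr16:90220512-90220753, plus strand: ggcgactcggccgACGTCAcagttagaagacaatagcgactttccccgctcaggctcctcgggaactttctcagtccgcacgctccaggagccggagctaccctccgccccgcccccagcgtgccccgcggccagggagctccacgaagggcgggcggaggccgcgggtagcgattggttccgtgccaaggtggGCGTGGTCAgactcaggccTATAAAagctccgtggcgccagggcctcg
Txnrd3, chr6:89643738-89643987, plus strand: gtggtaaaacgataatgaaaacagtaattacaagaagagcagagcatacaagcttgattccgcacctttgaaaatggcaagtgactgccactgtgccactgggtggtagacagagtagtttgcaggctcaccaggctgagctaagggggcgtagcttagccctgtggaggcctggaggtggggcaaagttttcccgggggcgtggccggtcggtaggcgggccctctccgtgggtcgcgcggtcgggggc
Sod2, chr17:13007589-13007816, plus strand: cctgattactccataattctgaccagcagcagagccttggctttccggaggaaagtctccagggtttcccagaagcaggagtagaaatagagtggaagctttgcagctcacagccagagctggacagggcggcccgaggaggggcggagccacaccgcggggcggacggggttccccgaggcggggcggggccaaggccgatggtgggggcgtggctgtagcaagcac
The Txndc2 stretch was the poorest in G and C bases of the 4, at 47.6%, against 58.0% for Txnrd3, 64.0% for Sod2 and 68.2% for Sod1. Only the Sod1 stretch held a match among these 4, with 1 of each of 3 motifs. Over the 13 promoter entries of the 9 members, 250 bases each before the start, the antioxidant response element also matched in Gstm5 and at the other listed start of Txndc2, and ACGTCA in Gpx4. The short sites around those matches were the following.
Gstm5, chr3:107895802-107895830, plus strand: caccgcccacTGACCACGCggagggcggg
Txndc2, chr17:65639941-65639969, minus strand: ctttgaacctTGACCTAGCctagctgtgt
Gpx4, chr10:80053522-80053547, plus strand: ccaataagagACGTCAgtgggcgtgc
Among all 32851 promoter entries, 10.16% held TGACNNNGC, 6.469% ACGTCA, 1.546% TGACGTCA and 12.37% TATAAA, and no member held TGACGTCA. A match of letters describes the sequence and says nothing of binding.

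Before the levels, the libraries differed in ways that touch them. The Prm2 KO library held 22885 barcodes and 123588822 UMIs (unique molecular identifiers, each 1 counted RNA molecule), against 15210 barcodes and 71364845 UMIs in the Prm2 het library, with medians of 3716 and 1882.5 UMIs per barcode. Prm2 itself had 614 UMIs in 18963 kept Prm2 KO cells (6.24 CPM, UMIs of a gene per 1000000 counted) and 811284 UMIs in 14576 kept Prm2 het cells (12093 CPM), in accord with the labels. The libraries shared 88 barcode sequences. Both held more barcodes than the 15000 cells loaded per library, and the kept Prm2 KO barcodes still exceeded that number. Barcodes called cells here may therefore not all be whole single cells, which also touches class sizes and shares of cells. The 24 clusters gave the classes spermatogonia-like (684 Prm2 KO and 229 Prm2 het cells), late-spermatocyte-like (2141 and 1173), round-spermatid-like (5014 and 3865), elongating-spermatid-like (4118 and 2379), Sertoli-like (938 and 1245), Leydig-like (172 and 292), interstitial-stromal-like (218 and 99) and macrophage-like (52 and 29), in the same order of genotypes. Unnamed clusters held 5598 and 5252 cells, among them clusters 16 and 11, in which early spermatocyte markers scored highest. Cluster 3, also unnamed, held 57 Prm2 KO and 2915 Prm2 het cells with medians of 786 and 961 UMIs. Round spermatid markers scored highest in it, but its leading genes were the hemoglobin genes Hbb-bs, Hba-a1, Hba-a2 and Hbb-bt. The elongating class came mostly from clusters 8 and 9 in Prm2 KO (56.1% and 34.1% of its cells) and from cluster 17 in Prm2 het (73.4%). A CPM is a share of a class's RNA, so a fall in RNA per cell would not be seen in it.

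Each of the 9 genes was detected in every class of both libraries, and their stage profiles fell into opposite patterns. Sod2, Txn2, Prdx5 and Txnrd3 reached their highest germ cell level in cluster 13, a late spermatocyte cluster, in both libraries and were low in elongating spermatids. Gpx4, Prdx4, Txndc2, Sod1 and Gstm5 were highest in spermatid clusters. The figure of levels by class gives all values, and the text below goes by enzyme role.

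**Figure D1:**
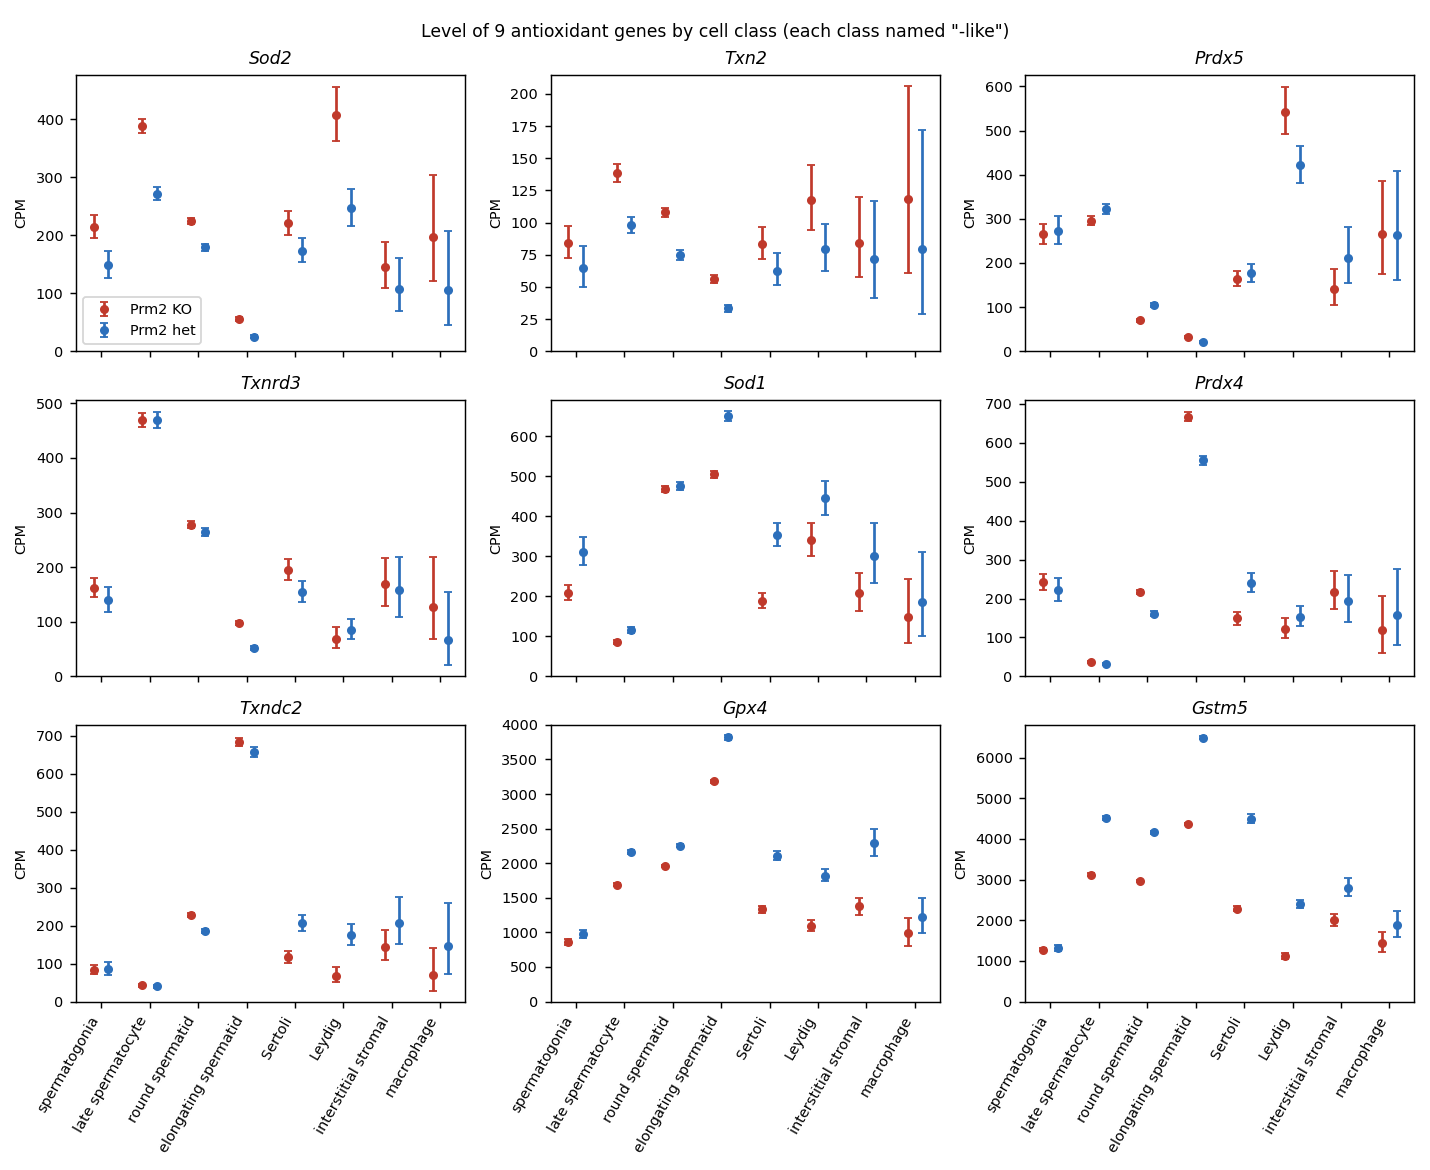
Level of each gene in CPM (y axis, from 0) in 8 cell classes (x axis), 1 panel per gene. Red points on the left are the Prm2 KO library and blue points on the right the Prm2 het library, with exact Poisson intervals of the summed UMIs. Sod2 in late-spermatocyte-like cells stands at 388 CPM in Prm2 KO against 272 CPM in Prm2 het, and Gstm5 in elongating-spermatid-like cells at 4372 against 6490 CPM.

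The superoxide dismutases ran in opposite directions through germ cell development. Sod2, the manganese enzyme of mitochondria, had 214 CPM in Prm2 KO and 148 CPM in Prm2 het spermatogonia-like cells, 388 and 272 CPM in late-spermatocyte-like cells, 224 and 179 CPM in round-spermatid-like cells and 55.6 and 24.7 CPM in elongating-spermatid-like cells. It was thus highest in late spermatocytes and lowest in elongating spermatids in both libraries, and higher in Prm2 KO in all 4 germ cell classes. Sod1, the copper-zinc enzyme of the cytosol, had 208 CPM in Prm2 KO and 312 CPM in Prm2 het spermatogonia-like cells, 85.7 and 115 CPM in late-spermatocyte-like cells, 469 and 476 CPM in round-spermatid-like cells and 505 and 649 CPM in elongating-spermatid-like cells. Its low point was cluster 13, with 45.6 CPM in Prm2 KO and 60.4 CPM in Prm2 het. Sod1 lies on chromosome 16 (chr16:90220754-90226329, plus strand), the chromosome that also holds Prm2, and overlaps Scaf4 on the other strand, while Sod2 is on chromosome 17 (chr17:13006846-13040063, plus strand).

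Of the peroxide-removing enzymes, Gpx4 and Prdx4 were spermatid-high and Prdx5 was not. Gpx4, the selenoenzyme that reduces lipid hydroperoxides inside membranes and also forms the capsule around sperm mitochondria, had 859 CPM in Prm2 KO and 970 CPM in Prm2 het spermatogonia-like cells, 1689 and 2164 CPM in late-spermatocyte-like cells, 1956 and 2253 CPM in round-spermatid-like cells and 3186 and 3818 CPM in elongating-spermatid-like cells. Its level was higher at each later class in both libraries. Its cytosolic, mitochondrial and nuclear forms share their 3′ end and are counted together, and a pseudogene, Gpx4-ps2, could share reads. Gpx4 lies at chr10:80047166-80056439 on the plus strand.

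Prdx4, the peroxiredoxin of the endoplasmic reticulum, is the only member on the X chromosome (chrX:155323918-155340754, minus strand), a chromosome known to be silenced in mid-meiotic spermatocytes. It had 309 CPM in Prm2 KO and 329 CPM in Prm2 het cells of cluster 16, 26.1 and 27.5 CPM in cluster 11, and 23.2 and 24.7 CPM in cluster 13. The share of all UMIs that came from X genes followed the same course, with 1.44% in Prm2 KO and 1.57% in Prm2 het in cluster 16, 0.127% and 0.117% in cluster 11, and 0.15% and 0.178% in cluster 13. Prdx4 was back at 188 CPM in Prm2 KO and 167 CPM in Prm2 het cells of cluster 7 (round spermatids), 365 and 313 CPM in cluster 14 (round), and 641 and 536 CPM in cluster 9 (elongating). Among the other members, Sod1 and Txndc2, on chromosomes 16 and 17, were also lowest in clusters 11 and 13. Prm1, a spermatid gene, had 4353 CPM in Prm2 KO and 8324 CPM in Prm2 het in cluster 16. It had 1483 and 2786 CPM in cluster 11, and 1572 and 3533 CPM in cluster 13. What X silencing and RNA from other cells contribute to these courses was not tested. In the latest elongating cluster, 18, Prdx4 fell off to 178 CPM in Prm2 KO and 113 CPM in Prm2 het.

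Prdx5, a peroxiredoxin of mitochondria, peroxisomes and cytosol, had 265 CPM in Prm2 KO and 273 CPM in Prm2 het spermatogonia-like cells, 295 and 323 CPM in late-spermatocyte-like cells, 69.8 and 105 CPM in round-spermatid-like cells and 32.7 and 21.6 CPM in elongating-spermatid-like cells. Among the classes it was highest in Leydig-like cells, at 543 CPM in Prm2 KO and 421 CPM in Prm2 het. It lies at chr19:6906697-6910106 on the minus strand and overlaps Trmt112 on the other strand.

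Of the thioredoxins, Txn2 was highest in spermatocytes and Txndc2 in spermatids. Txn2, the mitochondrial thioredoxin (chr15:77915047-77929006, minus strand), had 83.9 CPM in Prm2 KO and 64.4 CPM in Prm2 het spermatogonia-like cells, 138 and 98.0 CPM in late-spermatocyte-like cells, 108 and 74.8 CPM in round-spermatid-like cells and 55.8 and 33.3 CPM in elongating-spermatid-like cells. It was the flattest of the 9 across 21 clusters, with a highest level 4.21 times its lowest in Prm2 KO and 3.97 times in Prm2 het. Txndc2, a sperm thioredoxin of the tail's fibrous sheath (chr17:65637507-65642168, minus strand), had 83.0 CPM in Prm2 KO and 85.8 CPM in Prm2 het spermatogonia-like cells, 42.6 and 39.8 CPM in late-spermatocyte-like cells, 228 and 186 CPM in round-spermatid-like cells and 684 and 657 CPM in elongating-spermatid-like cells. Its highest cluster, 17, stood 31.8 times over its lowest in Prm2 KO and 22.3 times in Prm2 het.

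Txnrd3 encodes a reductase of the testis that acts on both thioredoxin and glutathione (chr6:89643988-89675529, plus strand). It had 162 CPM in Prm2 KO and 140 CPM in Prm2 het spermatogonia-like cells, 470 and 470 CPM in late-spermatocyte-like cells, 278 and 265 CPM in round-spermatid-like cells and 97.3 and 52.5 CPM in elongating-spermatid-like cells. The reductase was therefore highest before the sperm thioredoxin Txndc2, whose level was still low in the clusters where Txnrd3 peaked. In cluster 13 Txnrd3 stood at 496 CPM in Prm2 KO and 497 CPM in Prm2 het, where Txndc2 stood at 24.3 and 32.3 CPM.

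Gstm5, a mu-class glutathione transferase known for its high level in testis, had 1279 CPM in Prm2 KO and 1321 CPM in Prm2 het spermatogonia-like cells, 3121 and 4516 CPM in late-spermatocyte-like cells, 2959 and 4160 CPM in round-spermatid-like cells and 4372 and 6490 CPM in elongating-spermatid-like cells. It was highest in cluster 18, at 9095 CPM in Prm2 KO and 15070 CPM in Prm2 het, the cluster with the highest sum of the elongating markers (40208 and 50607 CPM). Prdx4 and Txndc2 were lower there than in the other elongating clusters. Gstm5 lies at chr3:107895821-107898686 on the plus strand, overlaps 4933431E20Rik on the other strand, and has mu-class paralogs with which reads may be shared.

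**Figure D2:**
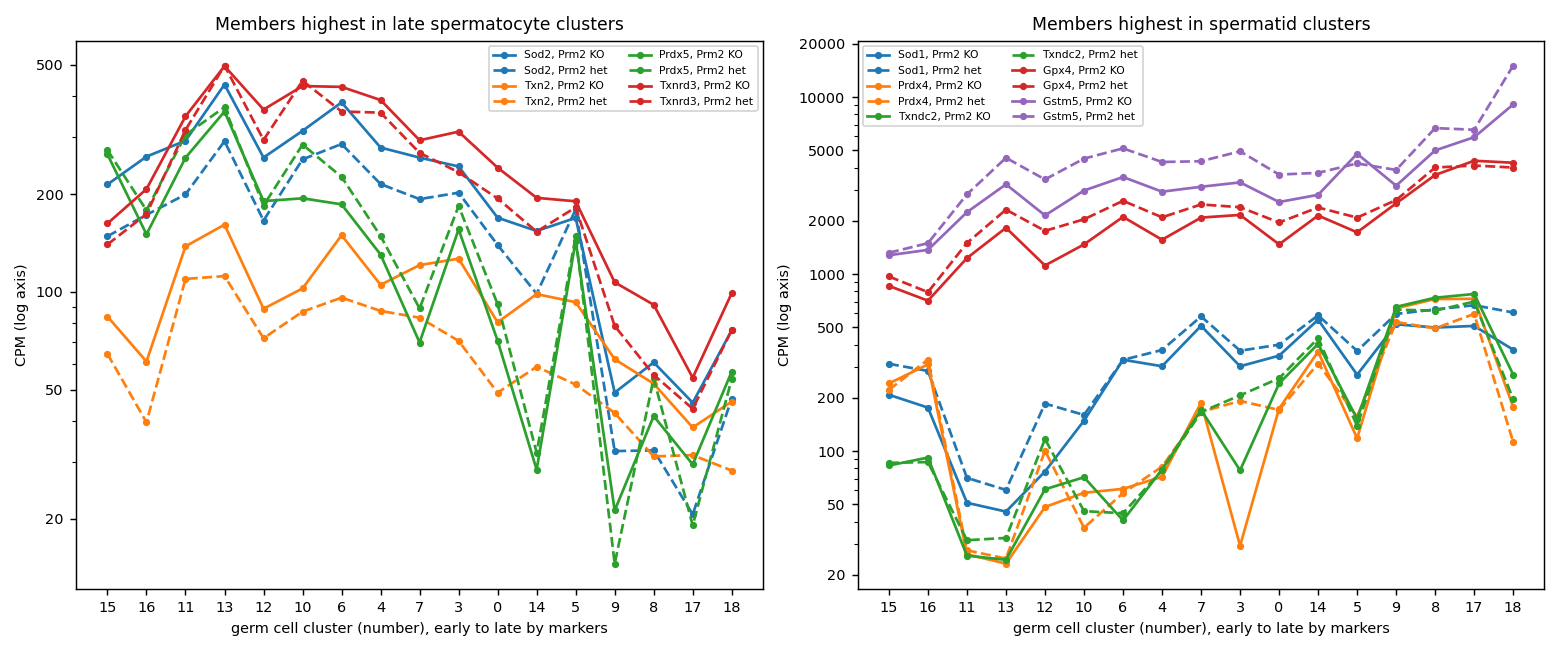
Level of each gene in CPM (y axis, log scale) in the 17 clusters with at least 50 cells per library in which a germ cell marker set scored highest (x axis, cluster numbers ordered by marker sums from spermatogonia to elongating spermatids), with solid lines for Prm2 KO and dashed lines for Prm2 het. Clusters 16, 11, 12, 6 and 3 among them are unnamed, and hemoglobin genes lead cluster 3. Sod2, Txn2, Prdx5 and Txnrd3 on the left peak in cluster 13, and Prdx4 and Txndc2 on the right are lowest there or in cluster 11 and highest in cluster 17.

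Shares of cells with at least 1 UMI, after thinning every cell to 2000 UMIs, gave the same stage order for the members named next. Txndc2 was found in 72.8% of Prm2 KO elongating-spermatid-like cells (4055 cells, exact Clopper-Pearson interval 71.4 to 74.2%) and in 69.2% of Prm2 het ones (2334 cells, 67.2 to 71.0%). In late-spermatocyte-like cells the shares were 8.39% in Prm2 KO (1096 cells, 6.82 to 10.2%) and 8.91% in Prm2 het (887 cells, 7.11 to 10.98%). Unthinned, the elongating shares were 91.0% in Prm2 KO and 91.1% in Prm2 het, at median depths of 4456.5 and 5962 UMIs.

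Free RNA from broken cells reaches other droplets in such data, so the shares were set beside Txndc2 in Sertoli cells, which are not known to make it. In Sertoli-like cells 19.6% of Prm2 KO cells (332 cells, 15.4 to 24.3%) and 34.7% of Prm2 het cells (118 cells, 26.2 to 44.1%) held a Txndc2 UMI after thinning, and 19.4% and 21.7% before it, at median depths of 1404 and 959 UMIs. The Txndc2 shares in late spermatocytes lie below those and are not read as expression, and free RNA and remaining doublets were not told apart. Per 1000 UMIs of Prm1, the other protamine gene, Txndc2 had 10.9 UMIs in Prm2 KO and 7.66 in Prm2 het in elongating-spermatid-like cells, 14.4 and 8.80 in Sertoli-like cells, and 17.9 and 9.73 in late-spermatocyte-like cells. Prm1 lies beside Prm2 on chromosome 16 and had 62433 CPM in Prm2 KO and 85694 CPM in Prm2 het elongating-spermatid-like cells. The ratios are therefore read within a library and not between the libraries. Those of Txndc2 were highest in late-spermatocyte-like cells in both libraries. They spread far less than those of Sod2, at 0.890 and 0.289 in elongating-spermatid-like cells against 163 and 66.5 in late-spermatocyte-like cells. The level of Prm1 in Sertoli-like cells was 8093 CPM in Prm2 KO and 23418 CPM in Prm2 het, a larger share of the Prm2 het sum. In late-spermatocyte-like cells Prm1 was at 2377 CPM in Prm2 KO and 4089 CPM in Prm2 het. With less spermatid RNA there, Txndc2 shares below the Sertoli-like ones cannot tell whether late spermatocytes make Txndc2.

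In germ cells 1 of the 9 genes, Sod2, differed at least 2-fold between Prm2 KO and Prm2 het, in elongating spermatids. Genes were compared where at least 1 library had 50 CPM and both together had 100 UMIs. All 9 passed this filter in spermatogonia-like and round-spermatid-like cells, 7 in late-spermatocyte-like cells (not Prdx4 and Txndc2) and 8 in elongating-spermatid-like cells (not Prdx5). None differed at least 2-fold in spermatogonia-like cells, where 2.78% of 5076 genes did (2.23% higher and 0.552% lower in Prm2 KO). None did in late-spermatocyte-like cells either, where 2.01% of 4030 genes did (1.49% higher, 0.521% lower), or in round-spermatid-like cells, where 1.87% of 3952 did (1.06% higher, 0.81% lower). One of 8, Sod2, did so in elongating-spermatid-like cells, where 9.27% of 2579 genes did. Sod2 passed the filter there only through Prm2 KO, at 55.6 CPM against 24.7 CPM in Prm2 het, so the count of 1 near that share supports nothing about the members. That share was lopsided, with 8.34% higher and 0.931% lower in Prm2 KO, and turned to 1.09% higher and 4.27% lower when TMM factors, which rescale the sums by the bulk of genes, were used.

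The median log2 ratio of Prm2 KO over Prm2 het for the members that passed was -0.04 in spermatogonia-like, -0.13 in late-spermatocyte-like, 0.07 in round-spermatid-like and 0.16 in elongating-spermatid-like cells. The medians of all genes compared were 0.03, -0.01, 0.01 and 0.27 in these classes. The members' median in the elongating class includes Sod2 and Txn2, which passed the filter only through Prm2 KO. The members went both ways in each class, so these medians do not describe a common movement, and the genes are given 1 by 1.

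In elongating-spermatid-like cells, Sod2 was 2.25-fold higher in Prm2 KO, with a log2 ratio of 1.17 (interval 1.01 to 1.33) from 1260 and 405 UMIs. Txnrd3 had 97.3 CPM in Prm2 KO and 52.5 CPM in Prm2 het (log2 ratio 0.89, 0.78 to 1.01) and Txn2 had 55.8 and 33.3 CPM (0.75, 0.60 to 0.89). Like Sod2, Txn2 passed the filter in this class only through Prm2 KO. The enzymes with the highest spermatid levels did not follow Sod2, Txnrd3 and Txn2. Gstm5 was lower in Prm2 KO, at 4372 against 6490 CPM (-0.57, -0.58 to -0.56), as was Sod1 (-0.36, -0.40 to -0.33). Both were lower in all 4 elongating clusters. The class ratio of Gpx4 (-0.26, -0.28 to -0.25) was not that of its clusters, which gave -0.06 in cluster 9, -0.14 in cluster 8 and 0.09 in clusters 17 and 18, and -0.01 with clusters weighted equally. Txndc2 (0.06, 0.02 to 0.09) and Prdx4 (0.27, 0.23 to 0.30) lay at or under the median gene and turned to -0.48 and -0.27 with TMM factors.

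The Sod2 difference was in the same direction in each elongating cluster. The log2 ratio was 0.60 in cluster 9 (0.29 to 0.92), 0.90 in cluster 8 (0.31 to 1.55), 1.14 in cluster 17 (0.55 to 1.69) and 0.70 in cluster 18 (0.10 to 1.31). It was past 2-fold in cluster 17 alone, where Sod2 (45.5 CPM in Prm2 KO and 20.6 CPM in Prm2 het) did not pass the filter of 50 CPM, as it did not in cluster 9 (48.9 and 32.3 CPM). With clusters weighted equally it was 0.83, without clusters 8 and 17, which hold at least 90% of their cells in 1 library, it was 0.52, and with TMM factors 0.64, all under 2-fold. Txnrd3 was higher in Prm2 KO in all 4 clusters too (0.32 to 0.72), as was Txn2 (0.28 to 0.74).

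Markers of some earlier stages moved with these genes. In elongating-spermatid-like cells the 10 late spermatocyte markers summed to 656 CPM in Prm2 KO and 324 CPM in Prm2 het, the 11 early spermatocyte markers to 327 and 154 CPM, and the 11 Sertoli markers to 312 and 63.9 CPM. The 10 elongating spermatid markers summed to 20521 and 26216 CPM, and no marker of these 4 lists was at 0 in either library. Within each of clusters 9, 8, 17 and 18 the late spermatocyte sum was also higher in Prm2 KO, at 618 against 379, 678 against 406, 453 against 275 and 976 against 711 CPM. The 11 round spermatid markers summed to 1364 CPM in Prm2 KO and 926 CPM in Prm2 het over the class. Within clusters they were higher in Prm2 KO only in cluster 8, at 790 against 720 CPM. They were lower in clusters 9 (2126 against 2189 CPM), 17 (586 against 622 CPM) and 18 (610 against 691 CPM). Mitochondrially encoded RNA made up 0.656% of UMIs in Prm2 KO and 0.247% in Prm2 het elongating-spermatid-like cells. It was higher in Prm2 KO in clusters 9 (0.433% against 0.156%), 17 (0.316% against 0.190%) and 18 (1.02% against 0.575%). In cluster 8 it was lower, at 0.849% against 1.16%. The part of these in the Sod2, Txnrd3 and Txn2 ratios was not tested.

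**Figure D3:**
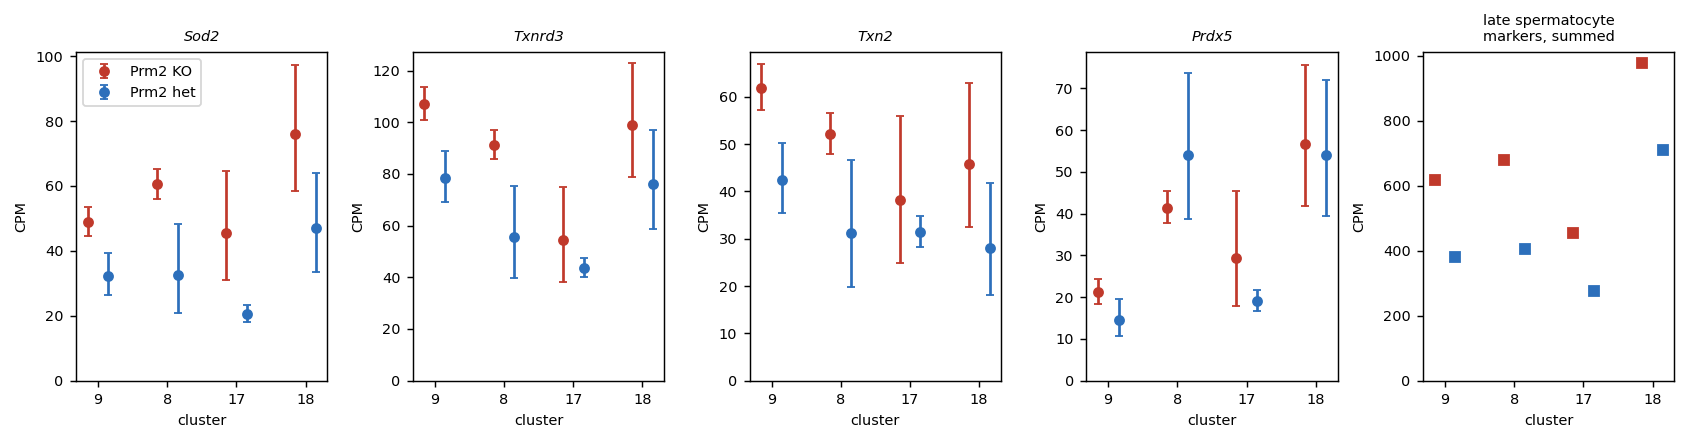
Levels in CPM (y axes, from 0) of Sod2, Txnrd3, Txn2 and Prdx5, with exact Poisson intervals, and of the summed late spermatocyte markers, with no interval, in the 4 elongating spermatid clusters (x axis, early to late). Red on the left is Prm2 KO and blue on the right Prm2 het. Sod2, Txnrd3, Txn2 and the marker sum are higher in Prm2 KO in all 4 clusters, and Prdx5 is lower in cluster 8.

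In round-spermatid-like cells the members spread less. Prdx5 had 69.8 CPM in Prm2 KO and 105 CPM in Prm2 het (log2 ratio -0.59, -0.68 to -0.50), but no cluster of the class reached that (-0.37 to -0.05), and with clusters weighted equally it was -0.23. Gstm5 had 2959 and 4160 CPM (-0.49, -0.51 to -0.48). Txn2 was higher in Prm2 KO, at 108 against 74.8 CPM (0.53, 0.44 to 0.62), as were Sod2 (0.32), Prdx4 (0.43, but -0.04 with clusters weighted equally) and Txndc2 (0.30, but -0.07 with each library clustered on its own). The ratios of Txnrd3 (0.07) and Sod1 (-0.02) were near 0. Cluster 5, with 139 Prm2 KO and 1084 Prm2 het cells, holds 2.77% of the class in Prm2 KO and 28.0% in Prm2 het.

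Late-spermatocyte-like cells came from clusters 10 and 13 in like shares of cells, but the cells of cluster 10 had a median of 1566 UMIs in Prm2 KO and 6916.5 UMIs in Prm2 het, so that the cluster weighs more in the Prm2 het sum. In this class Sod2 (0.51, 0.44 to 0.58) and Txn2 (0.50, 0.38 to 0.62) were higher in Prm2 KO. Gstm5 (-0.53, -0.55 to -0.51), Sod1 (-0.43, -0.56 to -0.30) and Gpx4 (-0.36, -0.39 to -0.33) were lower, though Sod1 turned to 0.37 with doublets kept. These signs held in both clusters, with Sod1 at -0.11 in cluster 10 and -0.41 in cluster 13, both smaller than in the class. Prdx5 was at -0.13 in the class, -0.55 in cluster 10 (-0.67 to -0.43) and -0.04 in cluster 13 (-0.14 to 0.05). Txnrd3 was at 0.00 in the class and close to 0 in both clusters (-0.05 in cluster 10 and -0.0049 in cluster 13). In spermatogonia-like cells Sod1 (-0.58, -0.79 to -0.37) and Sod2 (0.53, 0.27 to 0.80) differed most and in opposite directions. The 11 spermatogonia markers summed there to 1293 CPM in Prm2 KO and 1526 CPM in Prm2 het. The 11 early spermatocyte markers summed to 2420 and 2155 CPM, and the 10 late spermatocyte markers to 1104 and 563 CPM. The part of RNA from later stages in these ratios was not tested.

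Across the 21 clusters with at least 50 cells in each library, the sign of the difference on the CPM scale held for several members. Txn2 was higher in Prm2 KO in 21 of 21 clusters and Sod2 in 20 of 21, cluster 5 being the exception. Sod1 was lower in 20 of 21 (not cluster 6), Gstm5 in 20 of 21 (not cluster 5) and Gpx4 in 19 of 21 (not clusters 17 and 18). Thus 5 of 9 members kept 1 sign in at least 19 clusters, where 18.8% of 9992 genes did (14.3% higher and 4.42% lower in Prm2 KO). A gene entered the 9992 by reaching 50 CPM in any 1 cluster sum, so many may be low elsewhere. Gpx4 and Gstm5 had at least 708 and 1110 CPM in every cluster, while Txn2, Sod2 and Sod1 fell below 50 CPM in some. The share is therefore not a like-for-like background. Txnrd3 was higher in 18 clusters, while Prdx4 (11 higher, 10 lower), Prdx5 (7 and 14) and Txndc2 (9 and 12) had no common sign. The clusters of a library share its free RNA and its depth and are not replicates.

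The marker sums of some germ cell stages also kept a sign. The late spermatocyte markers were higher in Prm2 KO in 20 of the 21 clusters (median log2 ratio 0.46), somatic clusters included, and the elongating spermatid markers lower in 19 of 21 (-0.31). The spermatogonia and the early spermatocyte markers were each higher in 16 clusters and lower in 5 (0.21 and 0.19). The round spermatid markers had no common sign, being higher in 10 clusters and lower in 11 (-0.04). Sod2, Txn2 and Txnrd3, highest in late spermatocytes, lay on the side of the late spermatocyte markers, and Gpx4, Sod1 and Gstm5, highest in spermatids, on that of the elongating markers. The other 3 members did not follow this split: Prdx5, highest among germ cells in cluster 13, was lower in Prm2 KO in 14 of 21 clusters, and Prdx4 and Txndc2, highest in spermatids, had no common sign. What the marker sums contribute to the members' common signs was not tested.

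**Figure D4:**
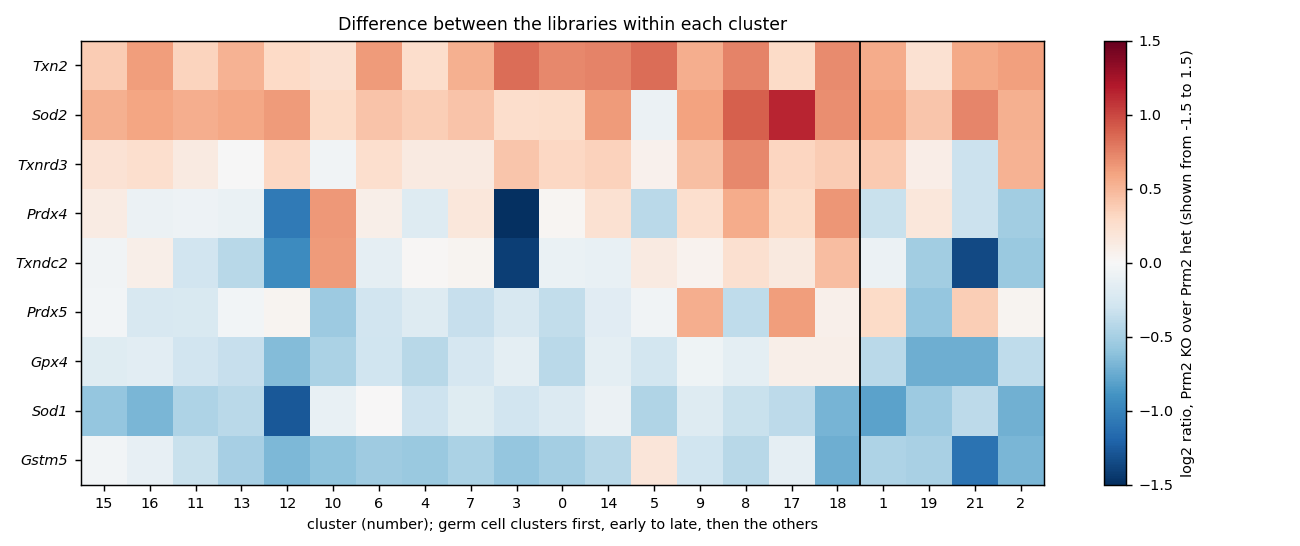
Log2 ratio of Prm2 KO over Prm2 het (colour, red higher in Prm2 KO and blue lower, shown from -1.5 to 1.5) for each gene (rows) in 21 clusters (columns). Clusters in which a germ cell marker set scored highest, unnamed ones included, are left of the line in order of stage and the others right of it. The Txn2 row is red in all 21 clusters and the Sod1 and Gstm5 rows are blue in 20 of 21.

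In somatic classes spermatid RNA also differed between the libraries, and its levels stand beside those of the members. In Leydig-like cells 2 of 9 members were at least 2-fold lower in Prm2 KO, where 16.9% of 3028 genes differed by that much (5.71% higher, 11.2% lower). They were Txndc2, at 68.5 CPM in Prm2 KO and 175 CPM in Prm2 het (log2 ratio -1.35, -1.83 to -0.90), and Gstm5, at 1110 and 2400 CPM (-1.11, -1.23 to -0.999). Prm1 differed more in the same cells, with 2653 CPM in Prm2 KO and 16295 CPM in Prm2 het, and the elongating spermatid markers summed to 2190 and 5827 CPM. Sod2 was higher there, at 407 against 246 CPM (0.73, 0.48 to 0.98), and so was Prdx5 (0.37, 0.17 to 0.57). The 7 Leydig markers summed to 18809 CPM in Prm2 KO and 20548 CPM in Prm2 het, none of them at 0.

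In Sertoli-like cells none of the 9 passed 2-fold, where 22.6% of 4644 genes did (19.0% higher and 3.66% lower in Prm2 KO). Gstm5 came closest, at 2286 CPM in Prm2 KO and 4498 CPM in Prm2 het (-0.98, -1.03 to -0.92), followed by Sod1 (-0.91, -1.09 to -0.72) and Txndc2 (-0.83, -1.07 to -0.58). Cluster 20 gave 19.5% of the Prm2 KO and 1.45% of the Prm2 het cells of this class. In interstitial-stromal-like cells 4 members had enough UMIs and none passed 2-fold, where 8.1% of 1111 genes did (5.31% higher, 2.79% lower). In this class the 7 peritubular myoid markers summed to 3663 CPM in Prm2 KO and 333 CPM in Prm2 het. The 7 interstitial stromal markers summed to 3382 and 5465 CPM. The Prm2 KO part thus held more myoid than stromal marker RNA, and the libraries are not compared in like cells there. Macrophage-like cells had too few UMIs for most members, Gpx4 (993 CPM in Prm2 KO and 1227 CPM in Prm2 het) and Gstm5 (1446 and 1886 CPM) excepted.

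The wider antioxidant system, was read from a list of 58 further genes, all found in the files. Of the 58, 18 passed the filter in spermatogonia-like, 11 in late-spermatocyte-like, 10 in round-spermatid-like and 9 in elongating-spermatid-like cells, and none of these differed 2-fold in either direction. Of all genes compared, 2.78%, 2.01%, 1.87% and 9.27% differed by that much in these classes, so finding none among so few genes says little. The median log2 ratios of the listed genes were 0.12, -0.01, 0.00 and 0.09, beside 0.03, -0.01, 0.01 and 0.27 for all genes. None of Gpx1, Gpx2, Gpx3, Gpx5, Gpx7 and Gpx8 passed in any of the 4 classes, and catalase (Cat) did not either.

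The genes of the list with the highest 3′ UMI counts, which do not scale with transcript length, changed with stage. In spermatogonia-like cells Prdx1, a cytosolic peroxiredoxin, led with 833 CPM in Prm2 KO and 533 CPM in Prm2 het (log2 ratio 0.65, 0.51 to 0.78), ahead of Glrx3, a glutaredoxin of iron handling (345 and 358 CPM), and Hmox2, the constitutive heme oxygenase (285 and 309 CPM). In late-spermatocyte-like cells Prdx6b, a retrogene copy of Prdx6 with which reads may be shared, led with 706 CPM in Prm2 KO and 800 CPM in Prm2 het, and Prdx1 was at 72.3 and 42.1 CPM. Glrx3 had 596 and 657 CPM there, and Nme8, a thioredoxin-domain protein of the axoneme, 171 and 264 CPM. In round-spermatid-like cells Prdx6b (548 CPM in Prm2 KO and 620 CPM in Prm2 het) and Hmox2 (616 and 532 CPM) led. In elongating-spermatid-like cells Hmox2 had 937 CPM in Prm2 KO and 881 CPM in Prm2 het, Glrx3 412 and 387 CPM, and Txndc8, a thioredoxin of the acrosome, 364 and 404 CPM.

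In somatic classes some listed genes did pass 2-fold. In Leydig-like cells 32 of the 58 passed the filter, with 6 at least 2-fold higher and 1 lower in Prm2 KO. The higher ones were Sod3, the secreted superoxide dismutase, at 178 CPM in Prm2 KO and 61.8 CPM in Prm2 het (log2 ratio 1.53, 1.08 to 1.99), catalase, at 97.5 and 43.2 CPM (1.17, 0.61 to 1.76), the peroxiredoxins Prdx1 (1.12) and Prdx3 (1.54), and the microsomal glutathione transferases Mgst1 (1.15) and Mgst3 (1.60). Txndc8 was lower there (-1.15) and in Sertoli-like cells (-1.05), where 25 of the 58 passed and Gstp1, at 16.3 CPM in Prm2 KO and 51.8 CPM in Prm2 het (-1.67, -2.29 to -1.08), was the other gene past 2-fold. Catalase and Mgst3 (100 against 33.0 CPM) passed the filter in Leydig-like cells only through Prm2 KO. Txndc8 in Leydig-like cells (47.4 CPM in Prm2 KO and 105 CPM in Prm2 het) and Gstp1 in Sertoli-like cells passed only through Prm2 het. The counts of genes past 2-fold thus support nothing about the list. The background shares of the Leydig-like and Sertoli-like classes are those given for the members. Median depth was 4160 UMIs in Prm2 KO and 1507 UMIs in Prm2 het Leydig-like cells, and its part in these ratios was not tested.

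Gsto2, an omega-class glutathione transferase, came nearest to 2-fold. It had 583 CPM in Prm2 KO and 315 CPM in Prm2 het elongating-spermatid-like cells (0.89, 0.84 to 0.93), 297 and 183 CPM in round-spermatid-like cells (0.70, 0.64 to 0.75), 302 and 205 CPM in late-spermatocyte-like cells (0.56, 0.48 to 0.64) and 124 and 68.1 CPM in spermatogonia-like cells (0.87, 0.49 to 1.26). It was higher in Prm2 KO in all 4 classes. Gstm5 was lower in the late spermatocyte, round and elongating classes and near 0 in spermatogonia-like cells (-0.05, -0.14 to 0.05). Nme8 was lower in Prm2 KO in late-spermatocyte-like (-0.62), round-spermatid-like (-0.45) and elongating-spermatid-like cells (-0.40).

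For each member the genes with the most similar course were sought by Pearson correlation of log2(CPM + 1) over 42 sums (21 clusters in both libraries) among 8566 genes, as a description over sums that share libraries. Txndc2 went with Rnf133 and Asb17 (both 0.98), Txnrd3 with Larp7 (0.97) and Clgn (0.96), Gstm5 with Proscos (0.97) and Tcp11 (0.96), and Sod2 with Hspa9 and Selenos (both 0.96). The courses of the other 5 were closest to Mea1 (0.95) and Ppp1r11 (0.92) for Gpx4, Mrpl33 and Sdf4 (both 0.95) for Prdx5, Rmnd1 (0.93) and Dynll2 (0.91) for Sod1, Tram1 (0.92) and Polr1d (0.91) for Txn2, and Ubr7 (0.91) and Tuba4a (0.90) for Prdx4. Among the members themselves Gpx4 and Gstm5 (0.90), Prdx4 and Txndc2 (0.89) and Txn2 and Sod2 (0.84) ran most alike, and Prdx5 and Txndc2 (-0.84) least.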

How the data were processed

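Whole testis cells of 1 Prm2 KO and 1 Prm2 het library were counted by 3′ ends, with 15000 cells loaded per library per the labels' protocols. The authors deposited raw UMI counts of each gene in each barcode. Per the file headers they come from Cell Ranger 7.1.0, and the submitters' processing notes also name Seurat 4.1.0 (its role is not given) and mm10. Columns of other samples numbered 0. Positions come from GENCODE M21 on mm10, which holds 32235 of the 32285 gene IDs.

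Filters of 500 UMIs (minimum), 250 genes (minimum) and 20% mitochondrial UMIs (maximum) passed most barcodes (22503 in Prm2 KO and 15038 in Prm2 het). Scrublet (scanpy 1.11.5, Python 3.11.15, expected rates 18.0% and 12.0%) removed 15.7% and 3.07% of these as doublets, so more doublets may remain in Prm2 het. Both libraries were clustered together without integration (2000 variable genes, 30 principal components, 20 neighbours, Leiden resolution 1), with the members, the wider list, protamine, transition protein, mitochondrial and Y genes and Xist left out of the variable genes. Clusters were named "-like" from fixed marker lists, by a scoring rule set on these data. UMIs were summed per class and scaled to CPM, with Poisson, conditional binomial and Clopper-Pearson intervals at 95%. These cover counting error only, and no p-value was computed. Thinning to 2000 UMIs left out shallower cells.

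The genes named are the 9 members, the listed genes past 2-fold or among the 3 highest per germ cell class, the 2 genes most correlated with each member (clone and predicted names left out), Prm1, Prm2, Tnp1 and Tnp2 as tracers, and markers. Gsto2 and Nme8 values beyond that rule, other lower-level members of the wider list and the somatic values were chosen after they were seen. The members and lists were chosen with earlier results of these data known. Other settings tried were 1000 UMIs, 10% mitochondrial UMIs, doublets kept, separate clustering, resolutions 0.5 and 2, TMM factors (edgeR 4.0.16, R 4.3.3), equal weight of cells, thinned cells and a 10 CPM filter. Equal weight of clusters, leaving out clusters mostly of 1 library and leaving protamine and transition protein UMIs out of the total were added after seeing the data. The size rule was tested on simulated data.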

Additional observations from a re-analysis of the deposited data

Results flagged for a closer look

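Prdx5 went in opposite directions in the spermatid classes: its log2 ratio of Prm2 KO over Prm2 het was 0.60 in elongating-spermatid-like cells and -0.59 in round-spermatid-like cells. With 1 library per genotype this difference between classes was not tested. No round spermatid cluster reached the class value, with -0.37 in cluster 0, -0.19 in cluster 4, -0.05 in cluster 5, -0.35 in cluster 7 and -0.17 in cluster 14, and with clusters weighted equally the ratios were 0.21 in the elongating and -0.23 in the round class. In the elongating class Prdx5 rests on 742 UMIs in Prm2 KO and 354 UMIs in Prm2 het, below 50 CPM in both libraries, and the clusters of that class did not share a sign, with -0.39 in cluster 8 (interval -0.85 to 0.12), 0.54 in cluster 9 (0.07 to 1.04), 0.62 in cluster 17 (-0.12 to 1.29) and 0.07 in cluster 18 (-0.54 to 0.69).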

How the results depend on the processing

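The count of members past 2-fold in elongating-spermatid-like cells was 1 and became 2 (Txnrd3 and Sod2) with each library clustered on its own and with cells thinned, and 0 with clusters weighted equally and without clusters mostly of 1 library. The share of all genes at least 2-fold higher in Prm2 KO moved as well, from 8.34% to 17.3%, 11.05%, 2.25% and 2.01% in that order. With TMM factors the count stayed at 1, but the gene was Gstm5 (-1.10) in place of Sod2 (0.64), as these factors moved this class's median over all genes to -0.26. In Sertoli-like cells the count of 0 became 3 with each library clustered on its own and with TMM factors (Txndc2, Sod1 and Gstm5), and 1 (Gstm5) with cells thinned and with protamine and transition protein UMIs left out of the total. The share of all genes at least 2-fold lower in Prm2 KO went there from 3.66% to 6.44%, 8.87%, 4.07% and 4.64%, in that order. In Leydig-like cells the count of 2 became 1 with at least 1000 UMIs per barcode, and 0 with doublets kept and with cells thinned. The share lower in Prm2 KO went there from 11.2% to 8.43%, 1.77% and 4.62%. Fewer cells and genes pass when cells are thinned, and the cause was not tested for the other settings. Of 36 ratios of members in germ cell classes, 22 kept their sign under every setting tried. In elongating-spermatid-like cells the log2 ratio ranged from 0.52 to 1.27 for Sod2, 0.36 to 1.05 for Txnrd3 and -0.27 to 0.45 for Prdx4, which is lower in Prm2 KO under TMM factors only. Depth limits Prdx5 and Txn2 in elongating cells and most members in stromal and macrophage cells. No paired analysis was possible because each genotype has 1 library.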
